A study of Mus musculus with 4 samples.

Results

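The 9 microRNAs of 1 stretch of the mouse X chromosome were followed in adult Sertoli cells under androgen suppression. They are mmu-miR-322, mmu-miR-503, mmu-miR-351, mmu-miR-542-5p, mmu-miR-542-3p, mmu-miR-450a-5p, mmu-miR-450a-3p, mmu-miR-450b-5p and mmu-miR-450b-3p, written below without the species prefix. They were chosen by name, as every mouse miRNA on the arrays named miR-322, miR-351, miR-450, miR-503 or miR-542 without the star of a passenger strand, and make up 9 of the 567 mouse miRNAs measured. The rule itself uses names and no measured value, though the cluster was picked with earlier results of these arrays known. Sertoli cells were purified from B6129 males aged 5 to 7 weeks and RNA was pooled from 5 to 7 mice. In all, 4 Agilent 1-colour miRNA arrays were hybridised, 1 for Sham (a Silastic tube under the skin and saline), 2 for Flut+Acy (flutamide, which blocks the androgen receptor, by Silastic implant, and acyline, an antagonist of gonadotropin-releasing hormone, at 20 mg/kg into the peritoneum) and 1 for Flut+Acy+T (the same flutamide and acyline with testosterone by implant). The array labels name these groups control, flutamide and Testosterone, the length of treatment behind the array samples is not stated in the sources used here (the study's PCR samples covered several lengths), and a pool size within the above range is given for each group without saying whether both Flut+Acy arrays came from 1 pool or from separate pools. These arrays are called Flut+Acy 1 and Flut+Acy 2, and their spread may be technical. RNA was taken from whole preparations, so a change in the number of cells of a type and a change in RNA per cell cannot be told apart.

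A miRNA is a short RNA that guides the Argonaute complex to messenger RNAs, and it recognises them mainly through its seed, bases 2 to 8 from its 5′ end. Several miRNAs are often cut from 1 primary transcript, so that neighbours can be made together, while each hairpin can yield a 5p and a 3p arm whose levels differ. The cluster studied here is known for miR-322 (the mouse counterpart of human miR-424) and miR-503, which repress regulators of the cell cycle and take part in differentiation of several cell types. Sertoli cells are the somatic cells that nurse germ cells in the seminiferous tubule and carry the androgen receptor.

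The positions the arrays give for the probed parts of all 9 miRNAs lie within 6320 bases of the X chromosome, on mouse build mm9 at chrX:50401185-50407504. Along the chromosome in falling coordinate the order is miR-322 (50407483 to 50407504), miR-503 (50407204 to 50407219), miR-351 (50406492 to 50406507), the miR-542 hairpin (50402592 to 50402648 for its 2 arms), the miR-450a arms (50401383 to 50401500) and the miR-450b arms (50401185 to 50401242). The nearest other miRNAs on the arrays were miR-106a at 305 kb below and miR-504 at 5943 kb above. Mature sequences of 8 of the 9 were matched in RefSeq (GRCm38.p6), 5 by name and 3 that carry no arm in their name by their distance from miR-542-5p, which placed miR-322, miR-351 and miR-503 as 5p arms. No exact entry was matched for miR-450a-3p. The 5 miRNAs that were detected on at least 1 array are shown first, 5′ to 3′, with the seed in capitals, because the values below turn on them.
miR-322: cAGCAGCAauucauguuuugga
miR-503: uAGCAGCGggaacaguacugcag
miR-542-5p: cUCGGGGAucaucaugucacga
miR-542-3p: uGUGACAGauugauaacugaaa
miR-450a-5p: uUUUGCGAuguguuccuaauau

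The seeds of miR-322 and miR-503 are alike at 6 of 7 bases, but only that of miR-322 is the seed of the miR-15 and miR-16 family. In the RefSeq table of 1679 mature miRNA names, 9 others hold the seed of miR-322, among them miR-15a-5p, miR-15b-5p, miR-16-5p, miR-195a-5p and miR-497a-5p, while no other holds that of miR-503, miR-542-3p or miR-450a-5p. Outside the seed the family members diverge, as miR-322 and miR-15b are equal at 16 of 22 positions counted from the 5′ end. Both miR-15b and miR-497 are shown for this comparison, with the seed in capitals.
miR-15b: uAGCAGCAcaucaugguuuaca
miR-497: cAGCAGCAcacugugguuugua
Of the members detected on no array, miR-351 shares its seed with miR-125a-5p and miR-125b-5p, and miR-450b-5p differs from miR-450a-5p within the seed (5 of 7 bases equal). Both are shown with miR-125b, a seed relative of miR-351 that was detected on all 4 arrays.
miR-351: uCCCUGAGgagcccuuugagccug
miR-125b: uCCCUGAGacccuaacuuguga
miR-450b-5p: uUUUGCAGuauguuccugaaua

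The arrays differed in ways that bear on all later values. The scanner software flagged 193 of the 567 mouse miRNAs as detected in Sham, 275 in Flut+Acy 1, 270 in Flut+Acy 2 and 102 in Flut+Acy+T. Summed positive signal was 57940 scanner units in Sham, 139602 in Flut+Acy 1, 161460 in Flut+Acy 2 and 201919 in Flut+Acy+T, and the Flut+Acy+T array stood apart by its background, since the SD of its 672 negative control spots was 1326 units against 2.72 to 7.45 on the others and 535 of its 12493 spots were flagged nonuniform. The faintest miRNA detected there had a total signal of 238 units, against 0.77 to 2.67 on the other arrays. Against the labelled cell type, miR-202-5p and miR-202-3p, which mark gonadal somatic cells, were both detected in Flut+Acy 1 and 2, 1 of them in Sham and none with testosterone. On Flut+Acy 1 and 2 miR-202-5p had 21.5 and 27.0 units, below the faintest miRNA detected on Flut+Acy+T, and miR-202-3p had 312 and 339, above it. The normalized log2 signal of miR-202-3p was 8.66 in Sham, 8.32 in Flut+Acy 1 and 8.25 in Flut+Acy 2. Markers of germ cells (6 miRNAs of the miR-34b, miR-34c and miR-449 group) had a summed normalized signal of 1678 units in Sham, 7151 in Flut+Acy 1, 6013 in Flut+Acy 2 and 2480 in Flut+Acy+T. Their detected number was 3, 5, 5 and 3 in that order, with miR-449b detected on none. By limma 3 of the 6 had a higher level in Flut+Acy than the Sham array, beside 25.5% of the 298 miRNAs tested, and 0 a lower one, beside 28.5%. Of these 3, miR-34b-3p and miR-34c* were not detected on Sham and entered the test only through other arrays. Flut+Acy was also the group in which the cluster was most often detected, and the part of these markers in the results was not tested. In the same comparison 5 of 6 muscle and peritubular, 3 of 6 blood and 1 of 2 endothelial markers were lower and 0 higher. Of the 2 gonadal markers 1 was higher (miR-202-5p, which Sham did not detect) and 0 lower. Whether these small lists differ from the shares over all miRNAs was not tested, and the detected members of all these lists were higher without normalization.

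Members were detected most often on the Flut+Acy arrays, as were mouse miRNAs as a whole. Of the 9 members, 5 were detected on at least 1 array, beside 52.6% of the 567 mouse miRNAs. The number was 1 in Sham, 5 in Flut+Acy 1, 4 in Flut+Acy 2 and 1 in Flut+Acy+T, or 11.1%, 55.6%, 44.4% and 11.1% of the 9, beside 34.0%, 48.5%, 47.6% and 18.0% of the 567 in the same order. The member detected on all 4 arrays was miR-322, as were 13.4% of the 567. A further 3 members, miR-503, miR-542-5p and miR-450a-5p, were detected on both Flut+Acy arrays and not on Sham, a pattern shown by 13.1% of the 567. miR-542-3p was detected on the first Flut+Acy array alone. The remaining 4, miR-351, miR-450a-3p, miR-450b-5p and miR-450b-3p, were detected on none, as were 269 of the 567, and so were the passenger strands miR-322* and miR-503*. The miR-542 hairpin was thus the single hairpin of the cluster with both arms detected. Of the miR-450a entries only miR-450a-5p was detected. Its position lies below that of miR-450a-3p, the reverse of the order in miR-542 and miR-450b, so these entries are not compared as arms of 1 hairpin.

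**Figure D1:**
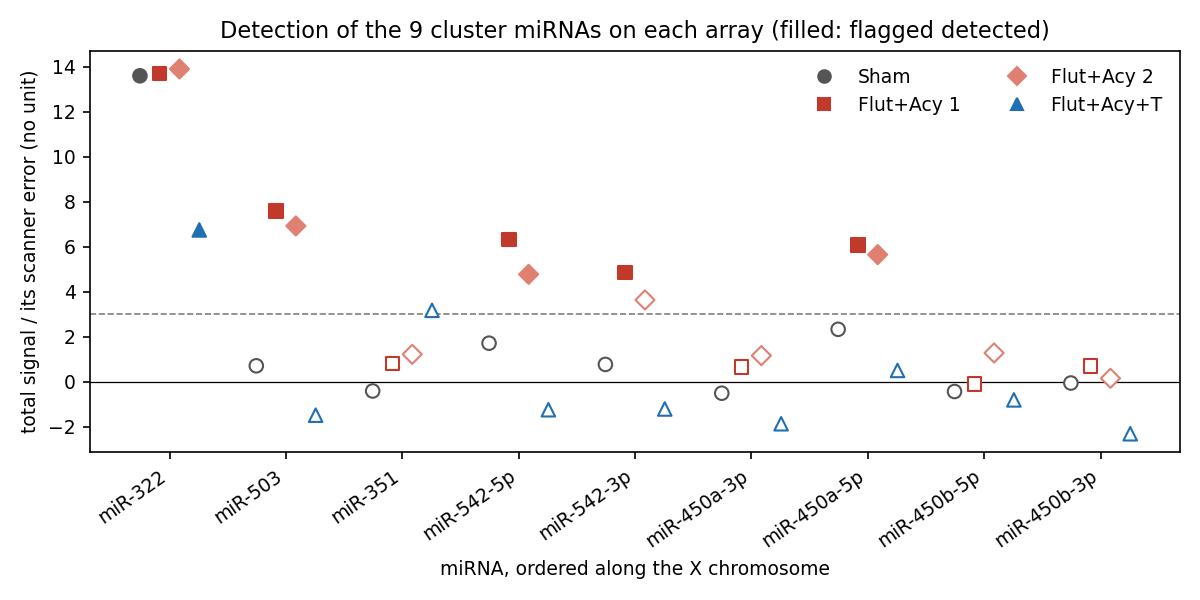
Total signal of each of the 9 cluster miRNAs divided by its scanner error, on the 4 arrays; filled symbols were flagged as detected and the dashed line marks 3 times the error. miR-322 sits at 13.6 to 13.9 on Sham and Flut+Acy and at 6.74 on Flut+Acy+T, and 4 others have filled symbols on Flut+Acy arrays only.

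miR-322 was detected on every array, with a strong signal on Sham and Flut+Acy. Its total signal, with the scanner's own error, was 216 ± 15.9 units in Sham, 1000 ± 73.1 in Flut+Acy 1, 1084 ± 78.0 in Flut+Acy 2 and 956 ± 142 in Flut+Acy+T. Sham was thus the low array, and the other 3 lay close together. All of its unflagged spots were well above background on Sham (20), on the first Flut+Acy array (20) and on the second (19), and 12 of 20 were on Flut+Acy+T. Its 2 probes, of 21 and 22 bases, gave the same order of Sham against Flut+Acy. The 21-base probe averaged 130 ± 10.1 units over its 10 spots on Sham against 606 ± 118 (10 spots) and 667 ± 23.8 (9 spots) on Flut+Acy, and the 22-base probe 197 ± 25.7 against 915 ± 132 and 945 ± 59.7 (SD over 10 spots each). On Flut+Acy+T they averaged 540 ± 103 and 901 ± 79.8, but 2 of 10 spots of the 21-base probe were well above background there, against 10 of 10 of the 22-base probe.

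**Figure D2:**
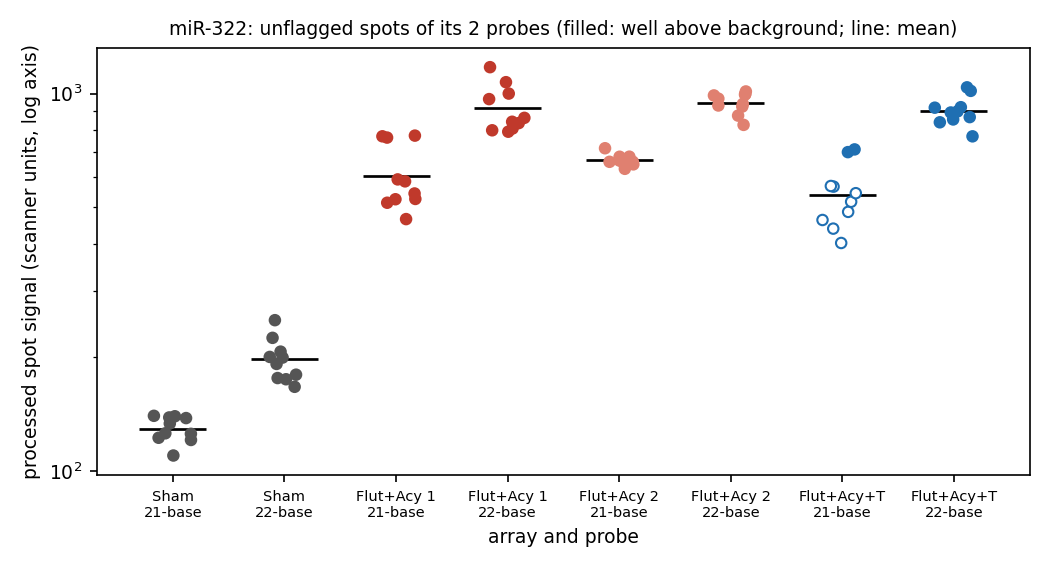
Processed signal of each unflagged spot of the 2 miR-322 probes on each array (scanner units, log axis), filled where well above background, with the mean as a line. No spot of either probe on Sham (110 to 251 units) reaches the lowest spot on any other array (402 units).

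Much of this gap was shared by other miRNAs. Before any normalization miR-322 was 4.62-fold and 5.01-fold higher on the 2 Flut+Acy arrays than on Sham, a mean log2 ratio of 2.27, while the median over the 189 miRNAs that Sham, Flut+Acy 1 and Flut+Acy 2 all detected was 1.54 and 138 of them (73.0%) had a lower ratio than miR-322. Signals were then quantile-normalized, so that every array has the same distribution of values, and log2 normalized signal entered a limma fit of the 298 miRNAs that 1 or more arrays detected. In this scale miR-322 was 9.55 in Sham, 9.84 in Flut+Acy 1, 9.79 in Flut+Acy 2 and 9.49 in Flut+Acy+T. The Flut+Acy arrays were both above Sham, by 0.26 on the log2 scale (SE 0.036, 1.20-fold), which did not pass (limma, Benjamini-Hochberg adjusted p = 0.0690). Relative to the median of the 283 miRNAs detected in either group, miR-322 was 0.44 higher in log2, and between 0.28 and 0.52 higher under each other scaling, background correction or floor tried and without the Flut+Acy+T array. Its own call moved with the scaling, since the difference was 0.92 (adjusted p = 0.0182) after scaling to the 75th percentile of the miRNAs detected on all 4 arrays, and 0.22 (adjusted p = 0.0418) after the normexp background correction.

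**Figure D3:**
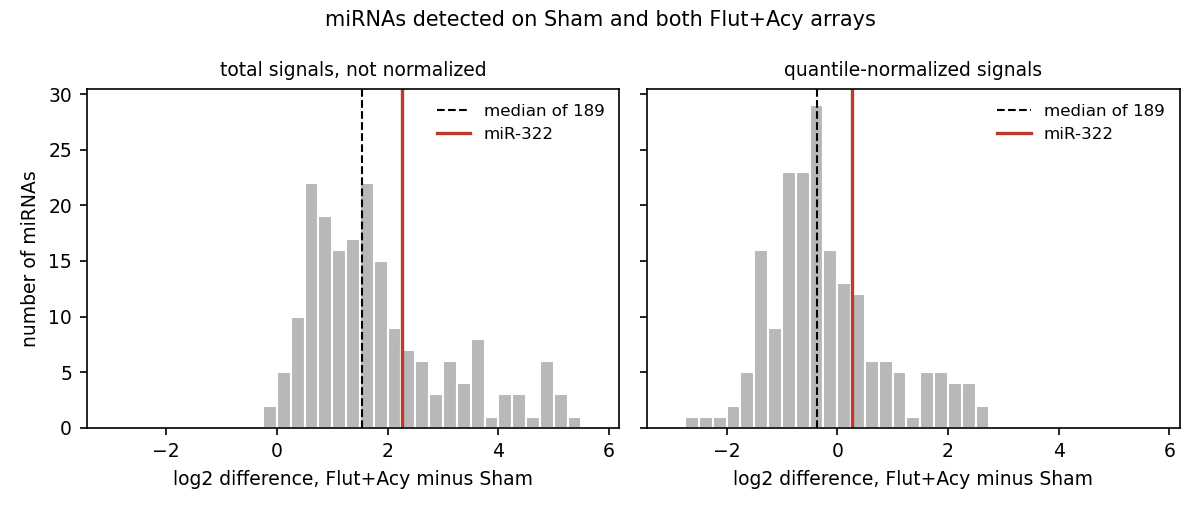
Number of miRNAs by log2 difference of Flut+Acy minus Sham among the 189 that these 3 arrays all detected, for total signals (left) and quantile-normalized signals (right); the dashed line is the median and the red line miR-322. miR-322 lies to the right of the median in both, at 2.27 against 1.54 and at 0.26 against -0.37.

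miR-503 had the largest measured difference of the members between Flut+Acy and Sham after quantile normalization, an order that did not hold with the normexp correction (0.19, below miR-322 at 0.22) or the deposited values (0, below miR-542-3p at 0.85 and miR-322 at 0.29). This miRNA is cut from the hairpin next to that of miR-322. Its total signal was 1.74 ± 2.48 units in Sham, 28.3 ± 3.74 in Flut+Acy 1, 34.8 ± 5.03 in Flut+Acy 2 and -184 ± 123 in Flut+Acy+T (scanner error). Both Flut+Acy values exceeded the Sham value, by 5.93 and 5.90 times the combined error of the 2 arrays, and the Flut+Acy arrays differed from each other by 1.04 times theirs. On the normalized scale the log2 signal was 3.65 in Sham, a signal not detected, against 5.60 in Flut+Acy 1 and 5.69 in Flut+Acy 2. As Sham did not detect miR-503, its fold is a bound against the lowest signal that counted as detected there (23.6 normalized units). Flut+Acy held 2.12 times that signal, and 2.21 times in the same comparison without the Flut+Acy+T array. This bound is not strict, since miR-450a-5p had 44.7 units on Sham without being detected. miR-503 had 48.5 and 51.7 units on Flut+Acy 1 and 2. On the measured values limma gave a log2 difference of 2.00 (SE 0.067, adjusted p = 0.0195). miR-503 was within background on Sham, an error that this SE, resting on the Flut+Acy pair, leaves out. Relative to the median miRNA its log2 difference was 1.78 to 2.43 in the quantile and percentile scalings, without normalization and without the Flut+Acy+T array, but 0.25 with the normexp correction, and 0 in the deposited normalized table, where its 4 values (-1.43, 0.60, -0.14 and -2.05) all lie below the floor.

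Only 1 of the 2 miR-503 probes carried this signal. The 16-base probe averaged 4.17 ± 2.17 units in Sham (10 spots), 39.6 ± 7.35 in Flut+Acy 1 (10 spots) and 47.5 ± 3.13 in Flut+Acy 2 (8 spots), with every unflagged spot well above background on the Flut+Acy arrays (10 of 10 and 8 of 8). The 15-base probe averaged between -1.55 and 4.26 units on the same 3 arrays, with no spot well above background. miR-542-5p showed the same kind of split over its 4 probes. On the first Flut+Acy array 4 of 5 spots of its 18-base probe and 5 of 5 of its 19-base probe were well above background, on the second 5 of 5 of the 19-base probe alone, and none of the 16-base and 17-base probes on either.

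**Figure D4:**
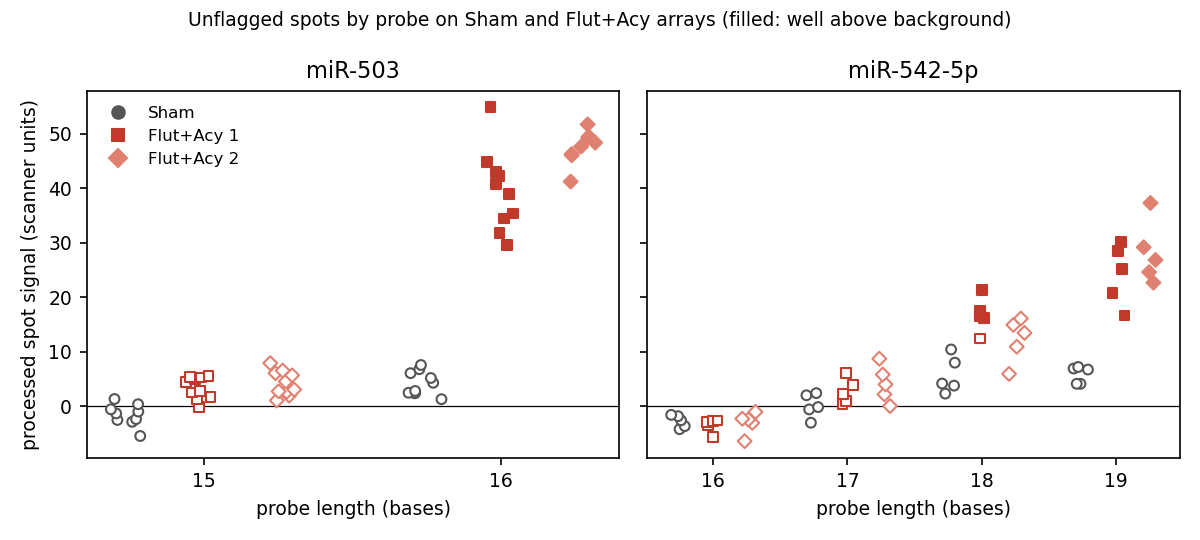
Processed signal of each unflagged spot of miR-503 (left) and miR-542-5p (right) by probe length on the Sham and Flut+Acy arrays, filled where well above background. Filled spots occur on the 16-base probe of miR-503 and on the 18-base and 19-base probes of miR-542-5p, and no Sham spot is filled.

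The fainter members were measurable on Flut+Acy only. miR-542-5p had a total signal of 3.01 ± 1.76 units in Sham, 13.3 ± 2.11 in Flut+Acy 1, 14.0 ± 2.94 in Flut+Acy 2 and -109 ± 87.2 in Flut+Acy+T. miR-542-3p, from the other arm of the same hairpin, had 1.88 ± 2.47 in Sham, 13.6 ± 2.81 in Flut+Acy 1, 14.6 ± 4.01 in Flut+Acy 2 and -150 ± 123 in Flut+Acy+T. miR-450a-5p had 5.83 ± 2.51, 17.9 ± 2.95, 24.0 ± 4.24 and 61.2 ± 124 in that order. All 3 were lowest on Sham among the 3 arrays with low background, and their Flut+Acy signals exceeded Sham by 2.69 to 3.75 times the combined scanner error. After quantile normalization the log2 differences from Sham were 0.60 for miR-542-3p (SE 0.30, adjusted p = 0.278), -0.27 for miR-542-5p (SE 0.29, adjusted p = 0.561) and -0.39 for miR-450a-5p (SE 0.040, adjusted p = 0.0492). The last of these passed the test with a negative sign, but miR-450a-5p was detected on both Flut+Acy arrays and not on Sham, where a signal within background took a higher normalized value (5.48 in log2 against 5.06 and 5.12). The sign was positive without normalization (1.83) and after scaling to the 75th percentile of miRNAs detected on all arrays (0.48), so no direction is given, and none of the 3 reached a bound above 1-fold. A Sham signal this close to background does not show that their levels were alike in the 2 groups.

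Counted over the cluster, 1 of the 5 members detected in Flut+Acy or Sham (miR-503) exceeded Sham 2-fold or more by normalized signal, beside 22.6% of the 283 miRNAs so measured, and 0 were at least 2-fold lower, beside 16.6%. Under limma 2 of the 5 passed, miR-503 with a positive difference, beside 25.5% of the 298 tested, and miR-450a-5p with the negative one described above, beside 28.5%. These shares are near the background, and 4 of the 5 could be counted only because Flut+Acy detected them. The counts also turned on the scaling, from 0 members at least 2-fold higher with the normexp correction or the deposited values to 5 of 5 with no normalization, where 212 of the 283 were at least 2-fold higher and 1 was lower, against 64 and 47 after quantile normalization.

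**Figure D5:**
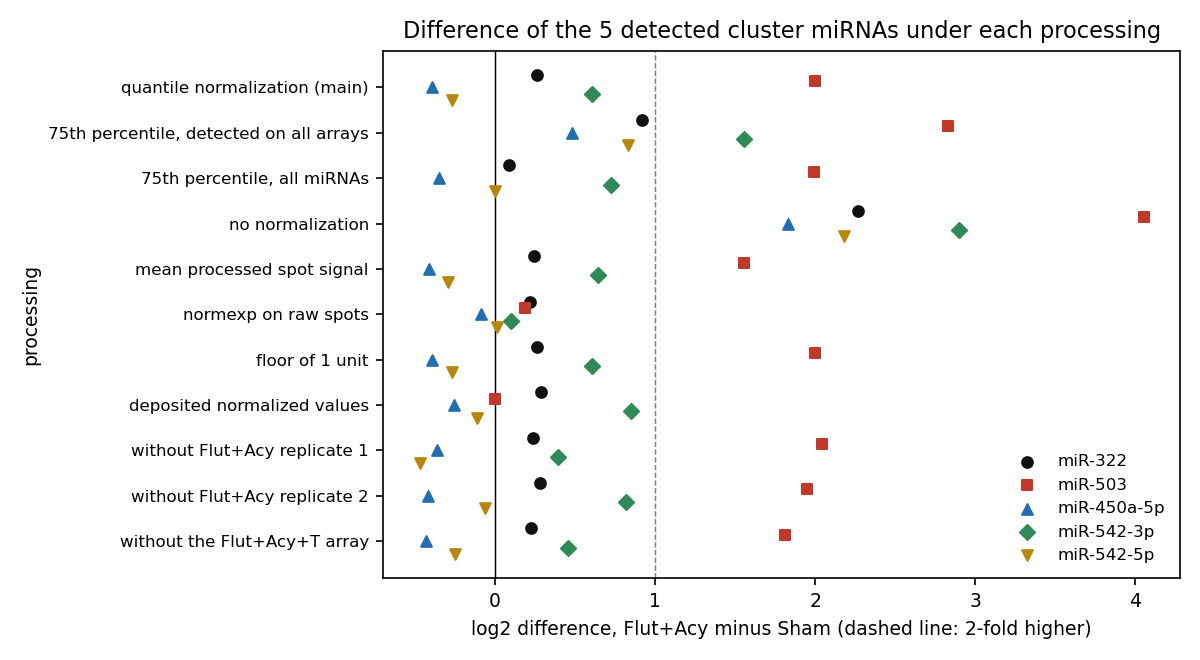
Log2 difference of Flut+Acy minus Sham for the 5 detected cluster miRNAs under quantile normalization and each alternative processing; the dashed line marks 2-fold higher. miR-503 lies at or beyond 1.55 except with the normexp correction (0.19) and the deposited values (0), and miR-450a-5p and miR-542-5p change sign between settings.

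Testosterone replacement could be followed for miR-322 alone. From Flut+Acy to Flut+Acy+T its normalized signal fell by 0.32 on the log2 scale (SE 0.036, 0.80-fold, limma adjusted p = 0.0418), in a comparison in which 53.7% of the 298 miRNAs were called lower. This call was lost when only miRNAs detected on all 4 arrays were fitted (adjusted p = 0.0534), with averaged spot signals (-0.25, adjusted p = 0.0533), in the analysis of variance (adjusted p = 0.155), and without normalization (-0.12, adjusted p = 0.603). The fall was larger with scaling to the 75th percentile of miRNAs detected on all arrays (-0.65, adjusted p = 0.0158) or of all miRNAs (-1.75, adjusted p = 0.00529) and in the deposited values (-1.87, adjusted p = 0.0282). The 75th percentile of all miRNAs on Flut+Acy+T was 231 units, a value below every miRNA detected there. Before normalization the total signals of miR-322 on Flut+Acy+T and Flut+Acy differed by -0.12 in log2. The median was 0.53 over the 76 miRNAs detected on all arrays, 20 of which were lower than miR-322. Against Sham, Flut+Acy+T differed by -0.06 (SE 0.042, adjusted p = 0.384), in a comparison in which 48.3% of the 298 were called lower, and the sign turned with the scaling. For miR-503, miR-542-5p, miR-542-3p and miR-450a-5p no fall could be measured, since their largest total signal on a Flut+Acy array was 34.8 units and the faintest miRNA detected on Flut+Acy+T had 238. Absence of a flag on that array therefore gives no direction for these 4.

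The other 4 members gave nothing that counted as detected. On Sham and Flut+Acy the total signals of miR-351, miR-450a-3p, miR-450b-5p and miR-450b-3p lay between -0.90 and 3.68 units, each at most 1.27 times its error. On Flut+Acy+T miR-351 reached 282 ± 88.9 units, 3.17 times its error, yet no flag was set. The other 3 were between -202 and -74.9 units there.

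The relatives that share the seed of miR-322 were all detected on all 4 arrays and did not move as 1 block after quantile normalization. Of miR-15a, miR-15b, miR-16, miR-195 and miR-497, which like miR-322 target cell cycle regulators, 2 passed limma with a higher level in Flut+Acy than in Sham (miR-15b and miR-16), beside 25.5% of the 298 tested. With a lower level 2 passed (miR-195 and miR-497), beside 28.5%. miR-16 differed by 0.44 on the log2 scale (limma adjusted p = 0.0444) and miR-195 by -0.21 (0.86-fold, limma adjusted p = 0.0195). The calls of miR-16 and miR-195 were not compared under the other scalings. The largest difference was that of miR-15b, 1.61 on the log2 scale (adjusted p = 0.00436), which was -1.59 from Flut+Acy to Flut+Acy+T (adjusted p = 0.00244). miR-15b and miR-195 had the same normalized value on both Flut+Acy arrays, as had 55 of the 298 miRNAs, so the SE behind these calls comes from the spread that limma shares across miRNAs and not from their own replicates. miR-497 differed by -0.70 (adjusted p = 0.0382), a sign that turned without normalization (0.64), where all 5 were higher in Flut+Acy. Its call was also lost with averaged spot signals (-0.64, adjusted p = 0.221), the normexp correction (-0.60, adjusted p = 0.163), the analysis of variance (adjusted p = 0.127) and the deposited values (adjusted p = 0.0508). miR-322, at 0.26, lay close to miR-15a, at 0.28 (adjusted p = 0.293). Of the 2 miRNAs with the seed of miR-351, miR-125a-5p and miR-125b-5p, both were detected on all arrays. By limma 1 passed with a lower level in Flut+Acy (miR-125a-5p, -0.77, adjusted p = 0.0298), beside 28.5% of the 298. Without normalization miR-125a-5p was higher, as was miR-125b-5p. miR-351 itself was detected on none.

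The nearest miRNA cluster on the chromosome holds miR-106a, miR-18b, miR-20b, miR-19b, miR-92a and miR-363, of the miR-17 family group known for promoting proliferation, and the arrays do not tell 2 of these (miR-19b and miR-92a) from their copies on another chromosome. Of these 6, 4 were detected in Flut+Acy 1 and 2, 3 in Sham and 2 in Flut+Acy+T. These 4 all passed limma with a higher level in Flut+Acy than in Sham, beside 25.5% of the 298 tested. The differences were 0.72 (miR-92a) to 1.53 (miR-19b) on the log2 scale for the 3 that Sham detected. Their calls were not compared under the other scalings. The Sham array did not detect miR-106a, which was counted only because Flut+Acy detected it (limma adjusted p = 0.0253). Its Flut+Acy signal was 1.34 times the lowest detected on Sham. This bound is not strict, since miR-450a-5p had 44.7 normalized units on Sham without being detected. miR-106a had 29.8 and 33.7 on Flut+Acy 1 and 2. The difference between the 2 clusters was not tested.

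The 3 miRNAs whose differences from Sham over the other 3 arrays were nearest to those of miR-322, among the 188 others that Sham, Flut+Acy 1 and Flut+Acy 2 all detected, were miR-193b (Euclidean distance 0.12 in log2), let-7g (0.14) and miR-15a (0.16). miR-193b differed from Sham by 0.34 and 0.22 on the Flut+Acy arrays. On Flut+Acy+T, which did not detect miR-193b, it differed by -0.17. In the same order let-7g differed by 0.27, 0.34 and -0.15, and miR-15a by 0.39, 0.18 and -0.17. Likeness over 3 differences that share 1 Sham array describes these arrays only.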

How the data were processed

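Per the file headers, the authors scanned 4 Agilent miRNA arrays with Feature Extraction 9.5.3.1 and deposited intensities on a linear scale: background-subtracted spot signals and a total signal per miRNA, given with the scanner error and not normalized between arrays and below 0 where background exceeded signal. Detection, outlier and well-above-background flags were used as deposited. The authors also deposited a quantile-normalized intensity table (by the methods, made in MATLAB), with medians over the 567 mouse miRNAs of 2.32, 3.36, 3.05 and 3.06 units. Each of its columns correlated best with its own array over 76 miRNAs (r between 0.61 and 0.82). It is not centred or a ratio. How spots were combined is unknown, so it served as an alternative only.

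Total signals of the 567 mouse miRNAs (10 viral ones left out) were quantile-normalized, raised to a floor of 5.46 units and log2-transformed. limma 3.58.1 in R 4.3.3 fitted 3 groups over the 298 that 1 or more arrays detected, with p-values adjusted by Benjamini-Hochberg and a threshold of 0.05. Its 1 residual degree of freedom came from the Flut+Acy pair, so Sham and Flut+Acy+T were assumed to vary like it. On simulated data of these sizes, every miRNA had the same spread and the changed ones a larger shift than most members here. All of 60 changed miRNAs were recovered there with 2.8 false calls. Recovery in the real data, where 55 of the 298 miRNAs were tied on the Flut+Acy pair, was not tested. With 1 log2 unit of extra spread on the lone arrays the simulated false calls rose to 168. Adjusted p-values therefore describe these arrays. The number of arrays limits the precision. A miRNA not detected on any array of a group was given a bound, from the higher of its own signal and the lowest detected signal on each array. This bound is not strict, since some miRNAs not detected on Sham had a higher signal than the lowest detected there. The members were found by name, but the cluster, the gene lists and the tests were chosen with earlier results of these data known, among them a rise of the germ cell list. Named besides the 9 members were their star forms, seed relatives, the neighbouring X cluster and the 3 miRNAs nearest to the median profile of members that Sham and the Flut+Acy pair all detected, which was that of miR-322. All arrays came from 1 slide and 1 scan as far as the files show.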

Additional observations from a re-analysis of the deposited data

How the results depend on the processing

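The Flut+Acy pair gave the only spread, Sham and Flut+Acy+T had 1 array each, and signals of all members but miR-322 lay near background. No paired analysis was possible because only the Flut+Acy labels carry replicate numbers. Leaving out either Flut+Acy replicate left no residual degree of freedom, so these are values without a test: the members at least 2-fold higher than Sham stayed at 1 to 1 and those lower at 0 to 0, miR-322 ranged from 0.23 to 0.28 in log2 against Sham, and from -0.35 to -0.30 for Flut+Acy+T against Flut+Acy.

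Against 1 member at least 2-fold higher and 2 passing limma after quantile normalization, there were 2 and 4 with scaling to the 75th percentile of miRNAs detected on all 4 arrays, 5 and 5 without normalization and 0 and 0 with the deposited normalized values. The normexp correction gave 0 at least 2-fold higher. None passed (0) when only miRNAs detected on all 4 arrays were fitted, which leaves miR-322 alone, or under the methods' analysis of variance without moderation, taken as its overall test over 3 groups because its Tukey step could not be computed with 1 residual degree of freedom. At an unadjusted p under 0.05 these last 2 fits called 1 member each and the deposited values 0, against 3 in the fit reported. In the alternative chosen after seeing the data, without the Flut+Acy+T array, 1 passed. The median log2 difference of the 283 miRNAs moved from -0.18 to 0.40, -0.34 and 1.75 with both percentile scalings and no normalization, in that order, and the share of higher among 2-fold differences from 57.7% to 88.5%, 47.9% and 99.5% (85.7% with normexp).

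For miR-322 in Flut+Acy against Sham, scaling over miRNAs detected on all arrays (0.92), no normalization (2.27) and normexp (0.22) brought it past the threshold. For Flut+Acy+T against Flut+Acy the call was lost when only miRNAs detected on all arrays were fitted (-0.32), in the analysis of variance (-0.32), without normalization (-0.12) and with averaged spot signals (-0.25). The same difference was larger, and still past the threshold, with the percentile scalings (-0.65 and -1.75) and the deposited values (-1.87). Scaling over all miRNAs used a percentile on Flut+Acy+T (231 units) that lay below the faintest miRNA detected there. For Flut+Acy+T against Sham the sign turned with scaling over miRNAs detected on all arrays (0.27), without normalization (2.14) and with normexp (0.046), and the difference passed the threshold with scaling over all miRNAs (-1.67) and with the deposited values (-1.59). Signs turned for miR-450a-5p (0.48 with scaling over miRNAs detected on all arrays, 1.83 without normalization), miR-542-5p (0.83 and 2.18 likewise, 0.00071 with scaling over all miRNAs, 0.0099 with normexp), miR-497 (0.64 without normalization), and let-7g (-0.45) and miR-15a (-0.051) with scaling over all miRNAs. A total above 3 times its error counted 2 members on Flut+Acy+T in place of 1. The cause of these changes was not tested.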
